A study of Drosophila melanogaster with 88 samples.

Results

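Cytosolic ribosomal protein genes are the genes of Drosophila melanogaster that encode the protein parts of the cytosolic ribosome. They were taken as the genes whose symbol begins with RpL, RpS or RpLP followed by a digit, together with sta, the fly gene for ribosomal protein SA, with a mean of at least 1 CPM (read count scaled to library size) over the 56 male libraries. Of 17830 genes in the male table, 92 had such a symbol and 83 passed the level, 50 of the large subunit and 33 of the small subunit. The level cut fell in a wide gap, since RpLP0-like, the lowest gene kept, averaged 13.9 CPM and RpS5b, the highest gene left out, averaged 0.713 CPM. The identifiers of 79 of the 83 genes were among the 17421 genes of the female tables, and those of RpS10b, RpL19, RpL31 and RpL27A were not.

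The study measured RNA from whole heads of males and from heads and guts of females, with 4 libraries in each of 22 groups. It used 3′-end sequencing kits that differed between the sexes. In the genotype series, male heads of VAPP58S flies (P58S) and VAPWT flies (WT) were taken at 5, 15 and 20 days of age, and female heads and guts of both genotypes at 5 and 20 days. VAPP58S is an altered form of Vap33, the fly counterpart of human VAPB, and the alteration corresponds to one that causes a familial form of amyotrophic lateral sclerosis. The kay series used male heads at 5 and 15 days, and every group in it, the control included, carried VAPP58S together with the glial driver Repo-GAL4. Its groups were labelled KayKD (knockdown of kay, the fly Fos gene), KayWT (overexpression of wild-type kay), KaySCR (overexpression of a form called KayakSCR, whose construct the labels do not describe) and the driver alone (Driver). The labels do not say how the VAP alleles were introduced, nor whether replicates came from separate animals. Each p-value therefore rests on the spread among these libraries, and that spread may be technical.

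Ribosomal proteins assemble with ribosomal RNA in the nucleolus and the cytoplasm into a small subunit, which decodes messenger RNA, and a large subunit, which joins amino acids. Their messenger RNAs are among the most abundant of most cells, and in flies and mammals both transcription of ribosome genes by Myc and translation of these messages by the TOR kinase are tied to growth and nutrition. In flies, loss of a single copy of many of these genes gives the Minute phenotype of slow growth and short bristles.

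Depth ranged over 2477839 to 16477528 gene reads per library in the male genotype series, 1205951 to 15022992 in the kay series, 200661 to 6817556 in female heads and 936869 to 9460976 in female guts. All 5 neuron markers and all 5 glial markers were detected in every head group, with summed neuron markers of 1742 to 5531 CPM per library, and the 5 gut markers summed to 50580 to 78824 CPM in guts. Messenger RNA of kay at day 5 ran from 186 to 222 CPM in KayKD, 200 to 252 CPM in KayWT, 254 to 318 CPM in KaySCR and 195 to 216 CPM in Driver heads. Against Driver it passed in KaySCR (log2 fold change 0.49, adjusted p = 0.014, edgeR quasi-likelihood test) and not in KayKD (-0.06, 0.833) or KayWT (0.14, 0.556), and at day 15 it passed in none of the 3. Whole-head RNA therefore did not bear out the labels KayKD and KayWT, which are used below as the labels give them. Messenger RNA of Vap33 ran from 762 to 809 CPM in P58S and from 663 to 732 CPM in WT male heads at day 5 (log2 fold change 0.16, adjusted p = 0.188, edgeR). In whole organs, fewer cells of a type and less RNA per cell cannot be told apart.

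Some libraries differed from their own group in these genes or in depth. In P58S day 5 replicate 3 the members' log2 differences from the mean of the other 3 libraries had an SD of 0.549, against 0.0689 to 0.257 in the other 23 libraries of the male genotype series. Of the 83 members, 38 were lower there by over 0.5 on the log2 scale, led by RpS16 at -1.84, RpL34b at -1.79 and RpL18 at -1.65, while RpL22 was higher by 1.07. The same library had 6.24% of its reads from mitochondrial genes, against 15.1 to 18.6% in the other 3, and its 5 glial markers summed to 9038 CPM, against 4870 to 5712 CPM. In the kay series Driver day 5 replicate 3 (SD 0.404, 1609827 reads) and replicate 2 (SD 0.276, 4142083 reads) both had RpL40 and RpL8 high and RpS23 low, and their neuron markers summed to 5531 and 4981 CPM, against 3662 and 4360 CPM in the other Driver libraries of that age. The other 30 libraries of that series had SDs of 0.102 to 0.291, so replicate 2 lay within their range and was singled out after its values were seen. Among female heads, WT day 5 replicates 2 and 4 were the shallowest, at 200661 and 386314 reads, with SDs of 1.01 and 0.558, against 0.13 to 0.556 in the other 14. Replicate 4 was thus set apart by depth and hardly by its SD. In female guts the SDs ran from 0.0903 to 0.618. Counts and medians that use these libraries are also given without them, as are the values of the members they moved most.

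The members were abundant in every organ, with a median level of 818 CPM in the male genotype series, 731 CPM in the kay series, 1403 CPM in female heads and 1582 CPM in female guts. With a 3′-end kit a message gives reads near its end, so levels were compared between genes without scaling for length. RpL41, the shortest ribosomal protein, was the most abundant member in the male genotype series (1604 CPM), female heads (5224 CPM) and guts (6047 CPM), and RpL27A in the kay series (1534 CPM). RpLP0-like, a relative of the stalk protein RpLP0 that in other species acts in assembly of the large subunit, was the least abundant in 3 of the 4 tables, at 15.4 CPM in the male genotype series, 13.0 CPM in the kay series and 16.1 CPM in female heads. In guts RpS15Ab was the lowest, at 20.9 CPM. Over members, the order of levels in the male genotype series had a Spearman rho of 0.978 with the kay series and 0.859 with female heads, and that of female heads 0.924 with guts, as a description across genes that share the kit's bias.

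Landmark members lay below the median level in each table, and RpLP0 below the lower quartile. RpLP0, the base of the stalk that binds translation factors, averaged 570 CPM in the male genotype series, 483 CPM in the kay series, 1012 CPM in female heads and 1056 CPM in guts. RpS6, the target of S6 kinase, averaged 790, 681, 1258 and 1232 CPM in the same order of tables, and sta averaged 658, 648, 1165 and 1240 CPM. By ratio, RpL23A and then RpL22 differed most between male and female heads of the genotype series. RpL23A had 213 and 189 CPM in the 2 male tables and 1458 and 1491 CPM in female heads and guts. RpL22 had 50.3 and 37.1 CPM in the 2 male tables and 210 and 190 CPM in female heads and guts. Kits and normalization differed between the sexes and no test was made across tables.

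Where a ribosomal protein has 2 gene copies among the members, 1 copy supplied most of the reads. RpS14a averaged 960 CPM and RpS14b 153 CPM in the male genotype series, RpS15Aa 502 CPM and RpS15Ab 21.4 CPM, and RpL34b 443 CPM and RpL34a 124 CPM. RpL24-like, which the symbol rule took in at 188 CPM, is a relative of RpL24 whose yeast counterpart is an assembly factor. The relatives RpS5b, RpS10a, RpS19b, RpS28a, RpL10Aa, RpL37b, RpL22-like and RpL7-like, together with RpS28-like, were the 9 genes under the level cut, and in flies several of them are known from the germ line. Reads of near-identical copies could have been divided by the authors' counting, so the split within a pair is uncertain. In addition, 46 of the 83 members overlap another annotated gene, 31 on the same strand and 27 on the other strand, and their counts may hold reads of that gene.

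In male heads the share of all gene reads that came from the 83 members was larger at days 15 and 20 than at day 5. It was 4.39 to 6.27% at day 5, 6.47 to 7.40% at day 15 and 6.99 to 7.35% at day 20 in P58S heads, and 5.69 to 6.14%, 6.88 to 7.49% and 6.76 to 7.68% at the same ages in WT heads. The ranges at days 15 and 20 lay above that of day 5 in both genotypes. In the kay series the day 15 ranges lay above those of day 5 in every arm, at 6.01 to 6.47% against 4.98 to 5.70% in KayKD, 6.64 to 7.81% against 5.57 to 6.26% in KayWT, 6.60 to 7.33% against 4.96 to 6.39% in KaySCR, and 6.52 to 6.81% against 5.59 to 6.31% in Driver. In female heads the share was 11.0 to 12.7% at day 20, against 9.33 to 10.1% at day 5, in P58S. In WT it was 12.0 to 13.6% at day 20, against 9.22 to 12.3% at day 5, with an overlap only through the shallow day 5 replicate 2. Guts held 11.4 to 14.3% over all 16 libraries.

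**Figure D1:**
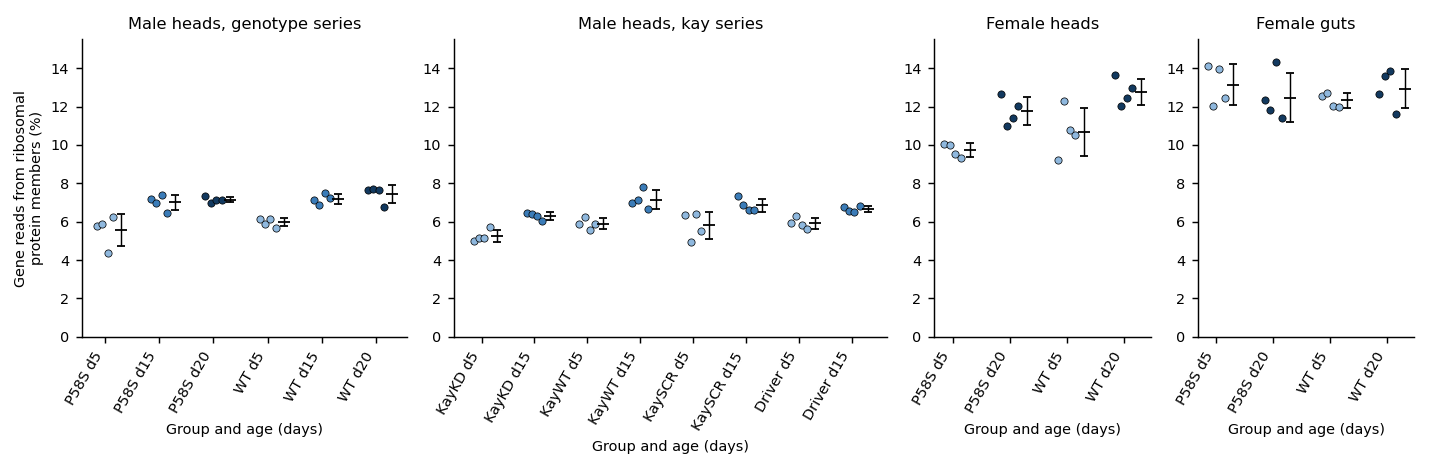
Percentage of gene reads from the ribosomal protein members in each library (points), with the group mean and SD at the right of each group, for male heads of the genotype series and the kay series, female heads and female guts. In both male tables the libraries of days 15 and 20 lie above those of day 5 of the same genotype, and P58S day 5 has 1 library at 4.39%.

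The first comparison asked whether VAPP58S changed these genes at a given age. In male heads almost none of them passed the test. At day 5, 1 of 83 members was lower in P58S and none was higher, when 1.12% of all 9741 genes tested were lower and 0.842% were higher (adjusted p under 0.05, edgeR quasi-likelihood test with Benjamini-Hochberg adjustment over all genes). The member was RpS3A, a small subunit protein, with 755, 680, 427 and 683 CPM in P58S heads, against 695, 1146, 894 and 967 CPM in WT heads. The groups overlapped through WT replicate 1. The log2 fold change was -0.54 ± 0.13 (SE, n = 4 each, edgeR adjusted p = 0.0228). Without P58S replicate 3 it was -0.39 with an adjusted p of 0.0517 (edgeR). The members' median log2 fold change at day 5 was -0.11, against -0.00 over all genes, and -0.01 without P58S replicate 3.

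At days 15 and 20 no member passed the test, when 0.482% and 0.862% of all genes were higher in P58S and 0.534% and 0.893% were lower. At an unadjusted p under 0.05 there were 0 members at day 15 and 1 at day 20 by edgeR, and DESeq2 called 0 at both ages. The smallest p-values belonged to RpL24-like at day 15 (log2 fold change 0.28 ± 0.14 SE, edgeR adjusted p = 0.595) and to RpL29 at day 20 (-0.21 ± 0.10 SE, edgeR adjusted p = 0.428). The median over members was -0.04 at day 15 and -0.03 at day 20, with SEs of single members near 0.10, so differences of that size were not detectable at this replication. The test of whether the change between days 5 and 20 differed with genotype also called 0 members (0.154% of all genes higher, 0.0513% lower, edgeR), with 1 member, RpLP2, at an unadjusted p under 0.05 (0.30 ± 0.14 SE). The median of this difference over members was 0.06, and -0.03 without P58S day 5 replicate 3.

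With age, many members rose in male heads of both genotypes, and few fell. Between days 5 and 20, 42 of 83 rose and 0 fell in P58S heads, when 7.19% of all genes rose and 8.81% fell. In WT heads 23 rose and 0 fell, when 5.07% of all genes rose and 5.51% fell. The members' median log2 fold change was 0.34 in P58S and 0.25 in WT, against 0.00 and 0.01 over all genes. In P58S 51 members had every day 20 library above every day 5 library, against 8.04% of all genes, and in WT 33 did, against 7.64%. Without P58S day 5 replicate 3 the P58S count was 41, when 1573 of 9940 genes passed in either direction, and the median was 0.23. A fit of the compared groups alone called 13 in P58S. Leaving out single libraries gave 31 to 51 in P58S and 12 to 27 in WT, with 12 without WT day 20 replicate 1 and 14 without day 20 replicate 2 or day 5 replicate 3. Changes of 42 and 23 members are not shown to differ, since the interaction called none.

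Proteins of the decoding site and the entry of messenger RNA on the small subunit were among the members that rose. RpS23, which in yeast lies at the decoding centre and affects its accuracy, had 1404, 1222, 1269 and 1254 CPM in P58S heads at day 20, against 894, 876, 722 and 824 CPM at day 5. In WT heads it had 1390, 1279, 1177 and 1372 CPM at day 20, against 717, 1123, 832 and 1090 CPM at day 5. The ages did not overlap in either genotype, and the log2 fold change was 0.63 ± 0.10 in P58S (SE, n = 4 each, edgeR adjusted p = 0.00017) and 0.47 ± 0.10 in WT (adjusted p = 0.00387). RpS9 rose by 0.52 ± 0.12 in P58S (edgeR adjusted p = 0.00318) and 0.51 ± 0.12 in WT (0.0045), and RpS3 by 0.42 ± 0.10 (0.00524) and 0.49 ± 0.10 (0.0021). The 5 members placed there (RpS2, RpS3, RpS9, RpS23 and RpS30) were grouped after their values were seen. Of them 5 rose in P58S and 3 in WT, which cannot show that this site rose more than others. Over the whole small subunit 22 of 33 rose in P58S and 12 of 33 in WT, and over the large subunit 20 of 50 and 11 of 50.

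Among the large subunit proteins that ring the exit of the peptide tunnel, 3 of 7 rose in each genotype by day 20. They too were grouped after their values were seen. RpL31, a protein of this group that rose, had 999, 920.5, 1019 and 918 CPM in P58S heads at day 20. It had 766, 708, 566 and 744 CPM there at day 5. In WT heads it had 1062, 1127, 1126 and 975 CPM at day 20, against 796, 777, 805 and 791 CPM at day 5. All day 20 libraries lay above all day 5 libraries. The log2 fold change was 0.47 ± 0.08 in P58S (SE, edgeR adjusted p = 0.000273) and 0.44 ± 0.08 in WT (0.00075). RpL35 and RpL39 made up the 3 in P58S (0.56 ± 0.17, edgeR adjusted p = 0.0254, and 0.47 ± 0.10, 0.0019), and RpL23A and RpL17 in WT (0.63 ± 0.16, edgeR adjusted p = 0.0124, and 0.25 ± 0.07, 0.0326). RpL35 had 285 CPM in P58S day 5 replicate 3, against 653 to 721 CPM in the other 3 libraries, and without it the change of RpL35 was 0.33 (edgeR adjusted p = 0.0245).

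Among the members with the largest changes in P58S by day 20, RpS26, a protein of the channel through which messenger RNA leaves, had 1460, 1259, 1493 and 1574 CPM at day 20, against 1150, 963, 491 and 1031 CPM at day 5 (0.67 ± 0.16 SE, n = 4 each, edgeR adjusted p = 0.00546). Every day 20 library lay above the day 5 libraries, and day 5 replicate 3 was the lowest of its group. RpL35A (0.59 ± 0.11, edgeR adjusted p = 0.000807) and RpL23 (0.56 ± 0.12, 0.00289) were also among them. Without day 5 replicate 3 the changes were 0.47 in RpS26 (edgeR adjusted p = 0.00495), 0.55 in RpL35A (0.00232) and 0.39 in RpL23 (0.000538).

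Landmarks differed among themselves by day 20. The stalk protein RpLP0 did not pass in either genotype, with 568 to 610 CPM in P58S heads at day 20 against 493 to 583 CPM at day 5, and of the 4 stalk members (RpLP0, RpLP1, RpLP2 and RpL12) RpLP2 alone rose, in P58S (0.49 ± 0.10, edgeR adjusted p = 0.00134). RpS6 did not pass either, at 0.32 in P58S and 0.25 in WT. The gene sta rose in both (0.46 ± 0.10, edgeR adjusted p = 0.00193, in P58S and 0.36 ± 0.10, 0.014, in WT). Of the 2 members made as fusions with ubiquitin, RpS27A rose in P58S (0.24 ± 0.07, edgeR adjusted p = 0.0221) and in WT (0.32 ± 0.07, 0.00394), whereas RpL40 had log2 fold changes of -0.06 and -0.03 that did not pass. RpL22 in P58S, and RpL34b, RpL15 and RpL18 in WT, also had values below 0 that did not pass, and RpL22 was at 0.16 without P58S day 5 replicate 3.

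P58S and WT libraries are separate, so the members' changes in both genotypes could be set against each other. For day 20 against day 5, 19 members rose in both, 45.2% of the 42 in P58S and 82.6% of the 23 in WT, and 78 of 83 had the same sign. The Pearson correlation over the 83 members was 0.508, as a description across genes that share libraries. For day 15 against day 5, 15 rose in both, 55.6% of the 27 in P58S and 100% of the 15 in WT. Of the 83 members 71 had the same sign, and the correlation was 0.897. The members were shifted up in both genotypes, so agreement in sign mostly restates that shift.

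**Figure D2:**
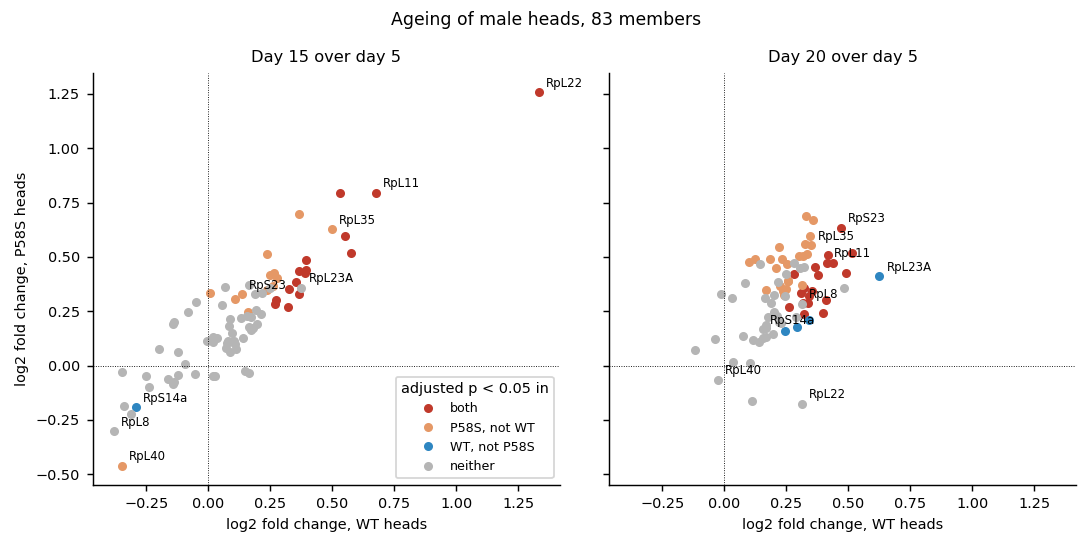
log2 fold change of each of the 83 members with age in P58S heads (vertical) against WT heads (horizontal), at day 15 over day 5 (left) and day 20 over day 5 (right), coloured by the genotypes in which the adjusted p was under 0.05. Most points lie above 0 in both genotypes, and RpL22 has the largest change at day 15.

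At day 15 the members moved less evenly than at day 20. Against day 5, 27 members rose and 1 fell in P58S heads (5.99% and 7.57% of all genes), and 15 rose and 1 fell in WT heads (5.08% and 7.3%). The median was 0.21 in P58S and 0.13 in WT. The SD of log2 fold changes over members was 0.26 in both genotypes at day 15, and 0.17 in P58S and 0.13 in WT at day 20. Both comparisons in a genotype share its day 5 libraries. Without P58S day 5 replicate 3, 25 members rose and 9 fell in P58S and the median was 0.10. In that fit 1740 of 9940 genes passed in either direction. Fits of the compared groups alone called 11 members in P58S and 25 in WT.

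RpL22 and RpL11 changed most. RpL22, an RNA-binding protein of the outside of the large subunit, is encoded on the X chromosome (dm6 X:762560-765130, minus strand). RpL22 overlaps lncRNA:CR42491 and snoRNA genes on the same strand, and may hold reads of them. It had 26.4, 28.6, 54.6 and 22.0 CPM at day 5, 69.9, 88.4, 91.2 and 66.6 CPM at day 15, and 41.4, 28.9, 31.0 and 18.8 CPM at day 20 in P58S heads. In WT heads it had 57.4, 20.1, 29.4 and 32.6 CPM at day 5, 92.3, 69.2, 93.0 and 83.0 CPM at day 15, and 30.8, 49.5, 56.8 and 25.4 CPM at day 20. All day 15 libraries lay above all libraries of the other ages in both genotypes. Day 15 over day 5 gave 1.26 in P58S (edgeR adjusted p = 0.00339) and 1.33 ± 0.28 SE in WT (0.00267). Day 20 over day 15, a comparison added after these values were seen, gave -1.44 ± 0.29 in P58S (edgeR adjusted p = 0.00466) and -1.02 ± 0.28 in WT (0.0277). In the kay series, which was normalised separately, day 15 libraries had 21.9 to 46.3 CPM of RpL22 over all 4 arms.

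RpL11, which with RpL5 and a small ribosomal RNA forms a unit of the large subunit that in mammals also binds the regulator MDM2, had 298, 258, 296 and 271 CPM at day 5, 507, 469, 538 and 434 CPM at day 15, and 439, 369, 395 and 357 CPM at day 20 in P58S heads. In WT heads it had 305, 317, 320 and 368 CPM at day 5, 497, 512, 600 and 485 CPM at day 15, and 455, 451, 478 and 359 CPM at day 20. Day 15 lay above day 5 without overlap in both genotypes, with log2 fold changes of 0.80 ± 0.10 in P58S (SE, edgeR adjusted p = 1.03e-05) and 0.68 ± 0.10 in WT (5.26e-05). At day 20 the change from day 5 was 0.47 in P58S (edgeR adjusted p = 0.00181) and 0.41 in WT (0.0074). RpL5 did not pass in either genotype at either age.

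Other members with large rises at day 15 were RpL35A (0.80 ± 0.11 in P58S, edgeR adjusted p = 5.92e-05, and 0.53 ± 0.11 in WT, 0.00291), RpL29 (0.60 and 0.55) and RpL38 (0.52 and 0.57). RpS21 and RpL35 were among the 5 largest in P58S, at 0.70 and 0.63, and at 0.55 and 0.40 without P58S day 5 replicate 3 (edgeR adjusted p = 0.000333 and 0.00609). In the other direction RpL40 fell by 0.46 in P58S (edgeR adjusted p = 0.0202), and RpS14a fell by 0.29 in WT (edgeR adjusted p = 0.0148).

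A group led by RpL8 was lower at day 15 than at day 20. RpL8, a core protein near the catalytic centre (dm6 3L:2587456-2588883, plus strand), had 1563, 1723, 1501 and 1719 CPM at day 20, against 1026, 1022, 1082 and 1197 CPM at day 15, in P58S heads. In WT heads it had 1571, 1477, 1385 and 1843 CPM at day 20, against 1025, 976, 776 and 1105 CPM at day 15. The ages did not overlap, and day 20 over day 15 was 0.59 ± 0.15 in P58S (SE, edgeR adjusted p = 0.0194) and 0.69 ± 0.15 in WT (0.00584). RpL3, also of the catalytic core, rose by 0.51 and 0.50, RpS14a by 0.36 and 0.45, RpL23 by 0.50 and 0.45, and RpLP2 by 0.41 and 0.38 in P58S and WT. Over all members 9 rose and 3 fell in P58S (3.77% and 2.99% of all genes), and 8 rose and 1 fell in WT (3.57% and 2.59%). The 3 that fell in P58S were RpL22, RpL11 and RpS25, and the 1 in WT was RpL22. Leaving out single libraries gave 2 to 13 calls in P58S and 3 to 9 in WT.

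**Figure D3:**
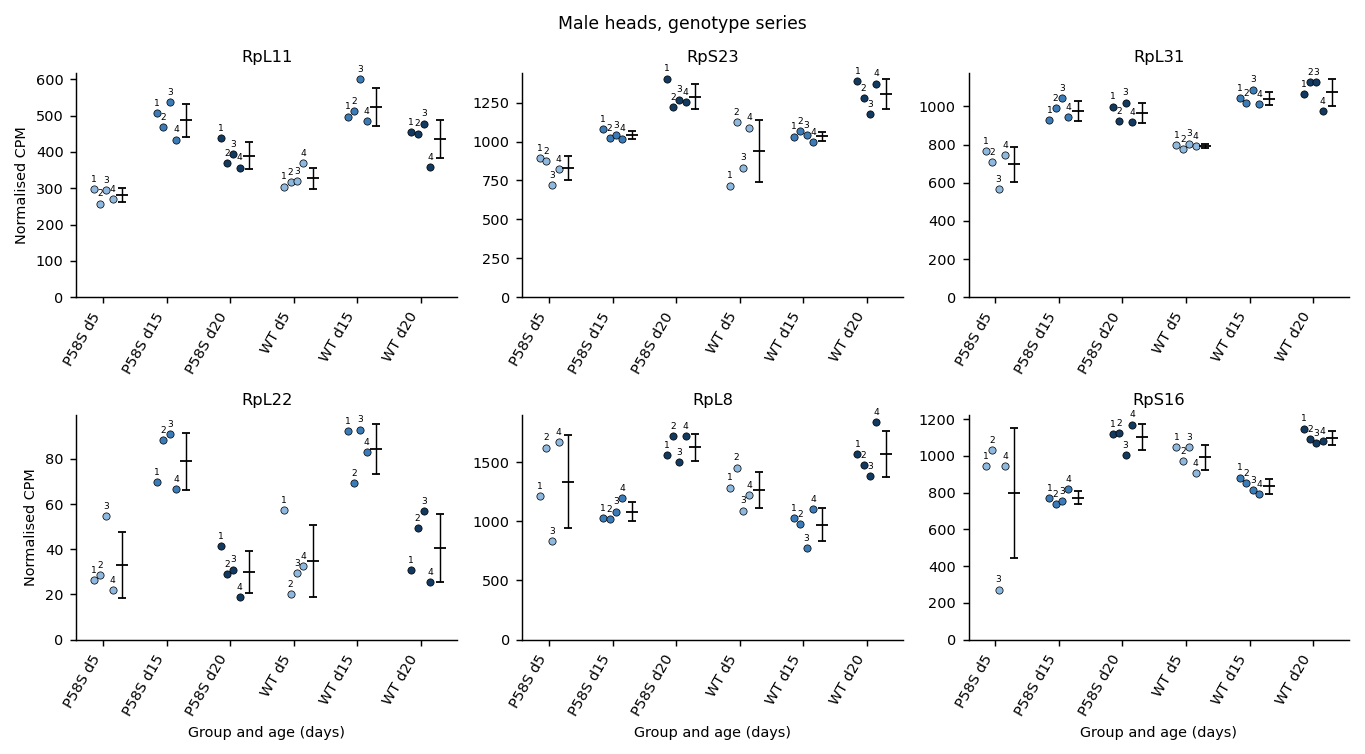
Normalised CPM of RpL11, RpS23, RpL31, RpL22, RpL8 and RpS16 in each male head library of the genotype series (points, numbered by replicate), with the group mean and SD beside them. RpL22 peaks at day 15 in both genotypes, RpL8 has its lowest group mean there, and P58S day 5 replicate 3 has the lowest RpS16 at 272 CPM.

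Other measures moved with age in the same libraries. Mitochondrial genes took 6.24 to 18.6% of reads at day 5, 11.5 to 12.0% at day 15 and 13.8 to 16.8% at day 20 in P58S heads, and 16.0 to 20.4%, 11.9 to 13.9% and 12.5 to 14.3% in WT heads. The summed neuron markers were 3631 to 3879 CPM at day 5, 2927 to 3224 CPM at day 15 and 3052 to 3263 CPM at day 20 in P58S, and 3317 to 3596, 2730 to 3178 and 2896 to 3109 CPM in WT. Of the 5 neuron markers, 3 fell in P58S and 2 in WT by day 20, and none rose. Their part in the ribosomal protein changes was not tested. The members that overlap another gene and those that do not gave similar counts, with 22 of 46 and 20 of 37 rising in P58S by day 20, and 14 of 46 and 9 of 37 in WT.

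**Figure D4:**
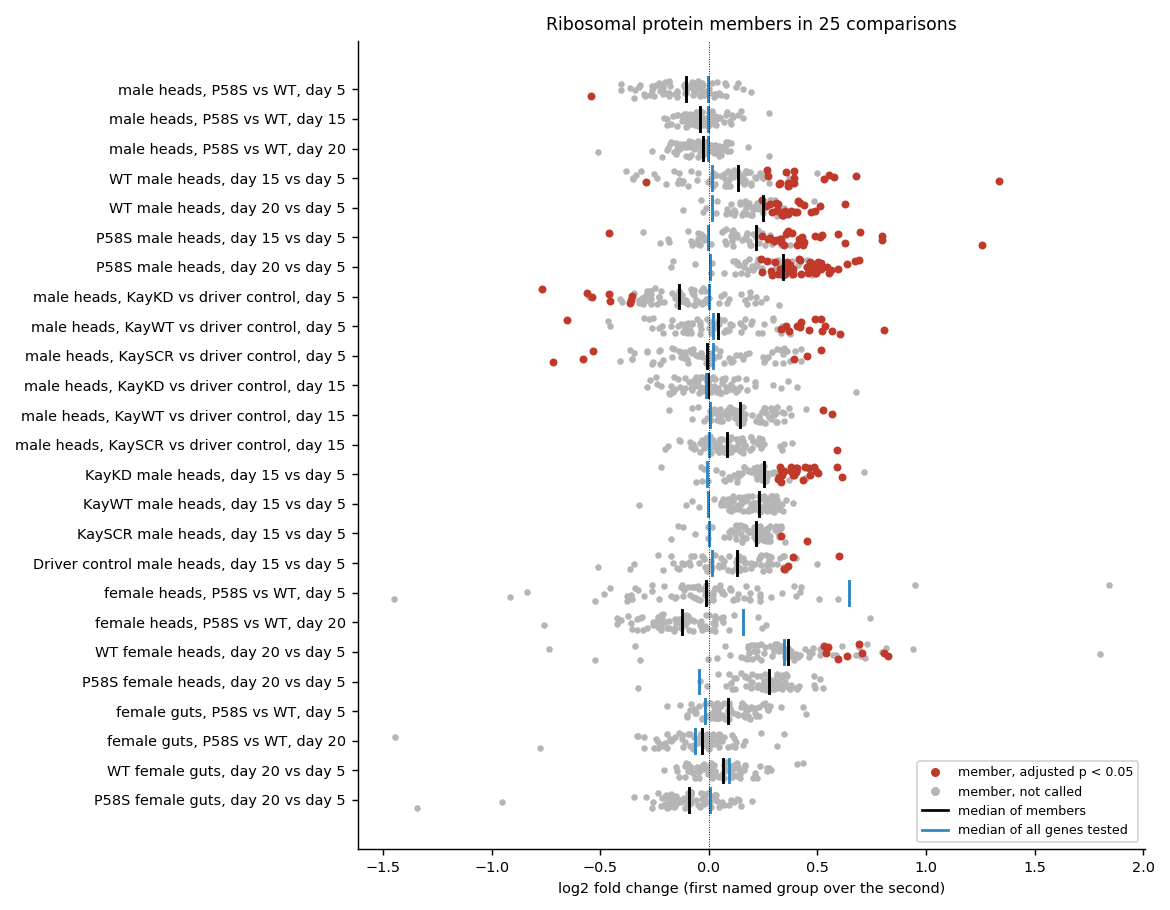
log2 fold changes of the members in 25 comparisons (points, red where the adjusted p was under 0.05), with the median of the members (black bar) and of all genes tested (blue bar). The members' medians lie to the right of the all-gene medians in each comparison of a later with an earlier age in male heads, by 0.12 to 0.34.

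The kay series asked whether changing kay in glia altered these genes in the VAPP58S background. At day 5 the arms were each compared with the same 4 Driver libraries, so their results share those controls. In KayKD heads 0 members rose and 8 fell (1.77% and 1.82% of all 9796 genes), with a median log2 fold change of -0.14. In KayWT heads 14 rose and 1 fell (3.01% and 2.58%), with a median of 0.04. In KaySCR heads 3 rose and 3 fell (1.34% and 1.27%), with a median of -0.01. Driver replicates 2 and 3 were then both left out, which leaves 2 Driver libraries of that age. By edgeR 0 members passed in any of the 3 arms. Of all 10423 genes tested, 57 passed in KayKD, 70 in KayWT and 48 in KaySCR, so few genes of any kind passed. The members' medians were -0.10 in KayKD, 0.12 in KayWT and 0.05 in KaySCR. Without Driver replicate 2 or 3 alone, 1 member passed in KayKD, 8 in KayWT and 0 in KaySCR.

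Members with the largest changes at day 5 were ones in which these Driver libraries lay apart from the other Driver libraries. RpL40 had 688, 907, 866 and 1121 CPM in KayKD, 1013, 1250, 1154 and 997 CPM in KayWT, 1054, 882, 894 and 883 CPM in KaySCR, and 979, 1541, 2481 and 1105 CPM in Driver heads. Driver replicates 2 and 3 were the highest of all 16 libraries, and the other 2 lay within the range of the arms. The log2 fold change against Driver was -0.77 ± 0.18 in KayKD (SE, n = 4 each, edgeR adjusted p = 0.00908) and -0.72 ± 0.18 in KaySCR (0.0201). RpL8 had 915, 1314, 1062 and 1051 CPM in KayKD and 1038, 1208, 961 and 1144 CPM in KaySCR, against 1241, 1648, 2345 and 1079 CPM in Driver heads. The groups overlapped, and Driver replicates 2 and 3 were again the highest. RpL8 fell by 0.54 in both KayKD (edgeR adjusted p = 0.0404) and KaySCR (0.0496), and RpL37a and RpS16 each fell by 0.46 in KayKD.

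In KayWT the largest rise at day 5 was that of RpS23, with 1152, 1456, 1005 and 1002 CPM in KayWT heads, against 906, 528, 438 and 763 CPM in Driver heads. The groups did not overlap, and Driver replicates 2 and 3 were the lowest (log2 fold change 0.81 ± 0.17 SE, edgeR adjusted p = 0.0028). RpS3A rose by 0.60 ± 0.13 (edgeR adjusted p = 0.00418), RpL23 by 0.57 ± 0.11 (0.00207), RpL24-like by 0.53 ± 0.15 (0.0246) and RpLP2 by 0.52 ± 0.10 (0.00207). In KaySCR the 3 that rose were sta (0.52 ± 0.14, edgeR adjusted p = 0.0437), RpL10Ab (0.45 ± 0.11, 0.0171) and RpS2 (0.39 ± 0.10, 0.021). Cell type markers also differed from Driver at day 5. In KayWT the neuronal genes Syt1 (-1.28, edgeR adjusted p = 3.77e-06) and brp (-0.41, 0.0226) and the photoreceptor gene norpA (-0.41, 0.0127) were lower. The glial gene wrapper (0.79, 0.00614) and the fat body gene Lsp2 (2.44, 0.0353) were higher. Syt1 was also lower in KaySCR (-1.06, 8.48e-05), and Lsp2 higher in KayKD (2.43, 0.0485). Their part in the changes of the members was not tested.

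At day 15, where the Driver libraries had SDs of 0.116 to 0.145, few members passed against Driver. In KayKD 0 passed (0.633% of all genes higher, 0.612% lower, edgeR), with 6 at an unadjusted p under 0.05, and DESeq2 called 2. The smallest p-values were those of RpS29 (0.33 ± 0.10 SE, edgeR adjusted p = 0.111) and RpL18 (0.36 ± 0.12, 0.125). In KayWT 2 rose (0.909% of all genes), RpL18 by 0.57 ± 0.12 (edgeR adjusted p = 0.00503) and RpL29 by 0.52 ± 0.12 (0.0174). In KaySCR 1 rose (0.592%), again RpL18, by 0.59 ± 0.12 (edgeR adjusted p = 0.00407). RpL18, a large subunit protein, had 1114, 1219, 1208 and 918 CPM in KayWT, 1190, 1138, 992 and 1205 CPM in KaySCR, and 764, 785, 722 and 740 CPM in Driver heads. Every library of both arms lay above every Driver library, and KayKD had 855 to 1076 CPM. In the genotype series, normalised separately, RpL18 was one of the members lowest in P58S day 5 replicate 3. Markers differed from Driver at day 15 too. In KayKD the photoreceptor gene ninaE was higher (1.10, edgeR adjusted p = 0.000493) and the glial gene Eaat1 lower (-0.54, 0.0368). In KayWT Syt1 was lower (-0.67, edgeR adjusted p = 0.0179).

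**Figure D5:**
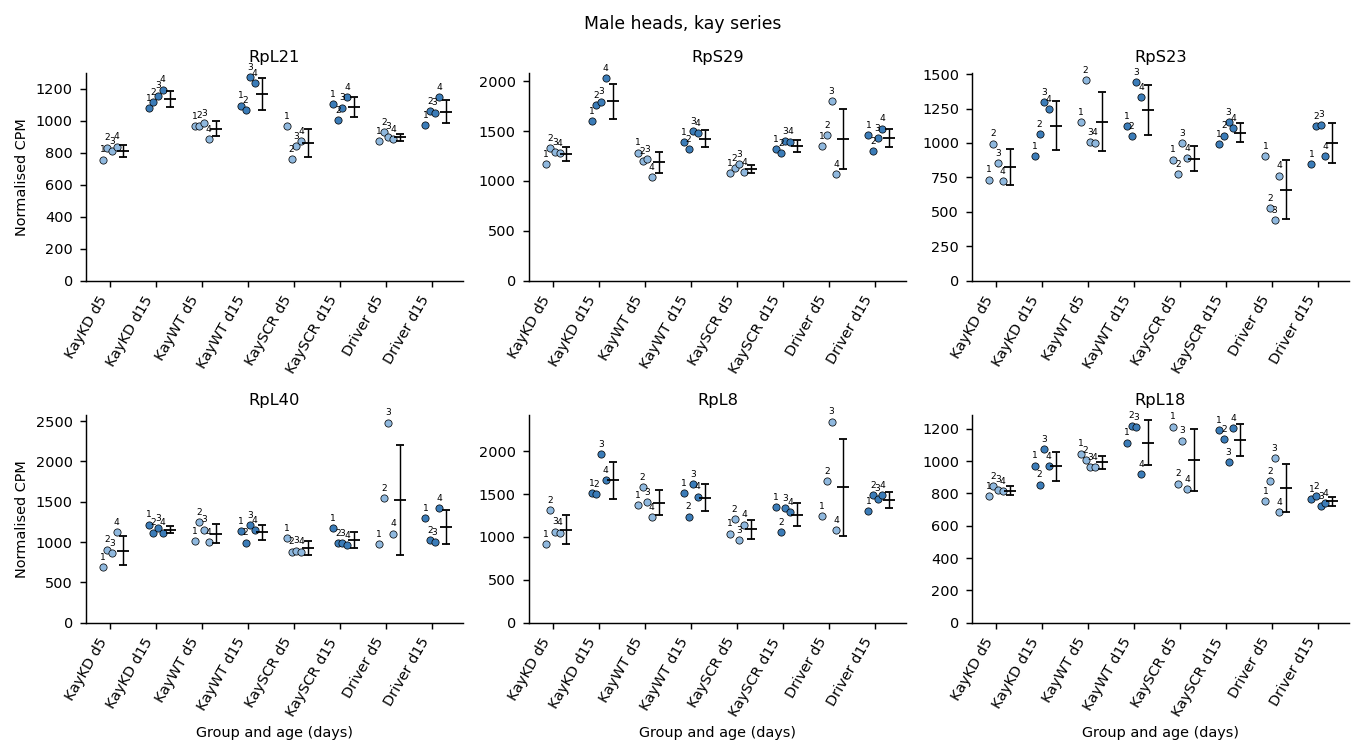
Normalised CPM of RpL21, RpS29, RpS23, RpL40, RpL8 and RpL18 in each male head library of the kay series (points, numbered by replicate), with the group mean and SD beside them. Driver day 5 replicates 2 and 3 are the highest in RpL40 and RpL8 and the lowest in RpS23 among the day 5 libraries, and at day 15 RpL18 is lowest in Driver.

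With age, the members were shifted up in every arm of the kay series, while the number that passed differed between arms. In KayKD 25 rose and 0 fell between days 5 and 15 (2.88% and 2.86% of all genes), with a median log2 fold change of 0.25. In KayWT 0 passed (0.612% and 0.98% of all genes, edgeR), with a median of 0.23. At an unadjusted p under 0.05 there were 36 members, and DESeq2 called 6. Both counts lack the share of all genes, so neither is read as a result about the members. In KaySCR 2 rose and 0 fell (0.521% and 1.15%), RpL35 by 0.45 ± 0.11 (edgeR adjusted p = 0.0228) and RpL21 by 0.33 ± 0.08 (0.0199), with a median of 0.22. In Driver 4 rose and 0 fell (2.75% and 3.33%), with a median of 0.13, namely RpS23 (0.60 ± 0.16 SE, edgeR adjusted p = 0.0224), RpL23 (0.39 ± 0.11, 0.0321), RpS2 (0.36 ± 0.10, 0.0179) and RpL4 (0.34 ± 0.10, 0.0377). Without Driver day 5 replicates 2 and 3 no member passed in Driver by edgeR, when 213 of 10423 genes did. The members' median was then 0.19. All-gene medians ran from -0.01 to 0.01. A difference between arms in the change with age was not tested. In KayKD a fit of the compared groups alone called 14 members, and leaving out single libraries gave 12 to 23, with 12 and 15 without day 5 replicates 1 and 3 and 15 without day 15 replicate 4. Every day 15 library lay above every day 5 library in 40 members in KayKD (4.97% of all genes), 26 in KayWT (4.28%), 19 in KaySCR (3.77%) and 15 in Driver (5.25%).

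Markers of other cell types and mitochondrial genes also moved with age in these arms. The 5 photoreceptor markers summed to 20597 to 38177 CPM at day 15, against 15116 to 17604 CPM at day 5, in KayKD, and their ranges were also apart in KayWT (17233 to 26673 CPM against 12261 to 15920 CPM) and KaySCR (19114 to 21410 CPM against 15186 to 16127 CPM), while they overlapped in Driver. Of single markers, the photoreceptor rhodopsin gene ninaE rose by 1.11 in KayKD (edgeR adjusted p = 0.000144) and 0.81 in KayWT (0.0106). The glial transporter gene Eaat1 fell by 0.55 in KayKD (edgeR adjusted p = 0.0116), the fat body gene Lsp2 fell by 3.94 in KayWT (0.0024), and in Driver the neuronal gene Syt1 fell by 0.84 (0.000608) and the fat body gene FASN1 rose by 0.39 (0.0377). Mitochondrial genes took 15.1 to 16.1% of reads at day 15, against 18.3 to 20.2% at day 5, in KayWT. Their part in the changes of the members was not tested.

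RpL21 and RpS29 had the smallest p-values in KayKD. RpL21, a large subunit protein (dm6 2L:22247111-22247875, minus strand), had 1079, 1118, 1157 and 1195 CPM in KayKD heads at day 15, against 758, 832, 808 and 838 CPM at day 5 (0.49 ± 0.08 SE, edgeR adjusted p = 0.00016). RpS29, a zinc-binding small subunit protein, had 1601, 1762, 1795 and 2031 CPM at day 15, against 1172, 1333, 1293 and 1281 CPM at day 5 (0.50 ± 0.10, edgeR adjusted p = 0.00226). Neither gene overlapped between ages. RpL8 (0.61 ± 0.15, edgeR adjusted p = 0.0117), RpS9 (0.59 ± 0.14, 0.00769) and RpL24-like (0.49 ± 0.15, 0.0439) were the others among the 5 largest. The 25 comprised 14 of 50 large subunit and 11 of 33 small subunit members, and 16 of the 46 members that overlap another gene and 9 of the 37 that do not.

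The calls in KayKD were set beside those for day 15 over day 5 in P58S heads of the genotype series, which are separate libraries, without a test of the difference. RpL31 was 1 of 2 members in both, 8% of the 25 in KayKD and 7.41% of the 27 in P58S, and the Pearson correlation of the log2 fold changes over the 83 members was -0.395, as a description, while 64 of 83 had the same sign. KayKD and Driver had 1 call in common, RpS2, 4% of the 25 in KayKD and 25% of the 4 in Driver. Between them 62 of 83 members had the same sign. The members were shifted up in each of these age comparisons, so agreement in sign mostly restates that shift. RpL8 had a log2 fold change of 0.61 in KayKD and -0.30 in P58S, and RpL11 0.18 and 0.80. The 2 series differ in the driver and the kay construct, which cannot be told apart here from other differences between the experiments.

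In female heads the test called few genes of any kind. Between P58S and WT no member passed at day 5 (0.0104% of 9640 genes higher, 0.0415% lower) or day 20 (0% and 0.0311%), by limma on log2(CPM + 1). At an unadjusted p under 0.05 there were 15 members at day 5 and 4 at day 20, without the share of all genes at that level. The edgeR test on reads recovered from the CPM values called 1 member at day 5, when it called 18 of 8799 genes. At day 5 the members' median was -0.01 while that of all genes was 0.65, and at day 20 -0.12 and 0.16. Without the shallow WT day 5 replicates 2 and 4, the day 5 medians were -0.05 over members and 0.05 over all genes. The interaction of genotype and age called 0 members and 0 genes, with 4 members at an unadjusted p under 0.05.

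The 2 members with the smallest p-values at day 5 were high in the shallow WT libraries. RpS18, a small subunit protein, had 1187, 1502, 1188 and 1305 CPM in P58S heads, against 1182, 12843, 2432 and 4186 CPM in WT heads, the highest value lying in the library of 200661 reads. RpS15 had 1581, 1657, 1498 and 1331 CPM in P58S heads, against 1531, 7047, 2044 and 3013 CPM in WT heads. The log2 fold changes were -1.45 (limma adjusted p = 0.21) and -0.92 (0.21), and without WT replicates 2 and 4 they were -0.39 and -0.23. The 9 matched ovary markers summed to 46.2 to 249 CPM in P58S heads and to 816, 1251, 559 and 722 CPM in WT heads at day 5. They separated the genotypes. WT replicate 2, highest in RpS18 and RpS15, had the most of these markers. WT replicate 1, with RpS18 and RpS15 near the P58S values, had more of them than replicate 4. Their part in the values of RpS18 and RpS15 was not tested.

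With age 9 of 79 members rose in WT female heads and 0 fell (0.591% and 0.384% of all genes, limma), with a median log2 fold change of 0.37 over members and 0.35 over all genes. RpL14, a large subunit protein, had 1775, 1571, 1422 and 1570 CPM at day 20, against 1013, 748, 1027 and 857 CPM at day 5 (0.81 ± 0.14 SE, limma adjusted p = 0.00502). RpL11 had 1055, 1006, 1094 and 1037 CPM at day 20, against 727, 538, 645 and 676 CPM at day 5 (0.70 ± 0.14, limma adjusted p = 0.0107). Both lay higher at day 20 without overlap. RpL35 (0.83 ± 0.17, limma adjusted p = 0.0172), RpS4 (0.69 ± 0.17, 0.0483) and RpL12 (0.63 ± 0.15, 0.0476) completed the 5 largest, and RpL5, RpS29 and RpS3A also passed. Without the 2 shallow WT day 5 libraries 4 members passed, when 116 of 9591 genes did. The members' median was then 0.35 and the all-gene median -0.14. RpL14 and RpL11 still passed (0.63, limma adjusted p = 0.0444, and 0.61, 0.0373), and RpL35 (0.0712), RpS4 (0.431) and RpL12 (0.24) did not. The ovary markers of WT heads were lower at day 20, with sums of 4.74 to 87.7 CPM against 559 to 1251 CPM at day 5, and 4 of the 9 fell, namely Vm26Aa (-6.13, limma adjusted p = 0.00213), Cp15 (-5.37, 0.0107), Cp36 (-4.36, 0.0161) and Vm32E (-4.15, 0.0162). Their part in the changes of the members was not tested.

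In P58S female heads 0 members passed with age (0.124% of all genes rose, 0.145% fell, limma). At an unadjusted p under 0.05 there were 27, a count that lacks the share of all genes at that level. In 36 members every day 20 library lay above every day 5 library, against 3.64% of all genes. The median was 0.28 over members and -0.05 over all genes. RpS29 came nearest, with 2747, 2569, 2320 and 2716 CPM at day 20, against 1742, 1796, 1806 and 1841 CPM at day 5 (0.52 ± 0.12 SE, limma adjusted p = 0.0807). In WT females 28 members did not overlap, against 2.82% of all genes. Between WT male and WT female heads, 72 of the 79 shared members had the same sign for day 20 over day 5, and 4 members, RpL11, RpL14 and RpS29 among them, passed in both, 17.4% of the 23 in males and 44.4% of the 9 in females. The correlation over members was 0.258, as a description, and kits and normalization differed between the sexes. The members were shifted up in both sexes, so agreement in sign mostly restates that shift.

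In female guts no member passed any test. Between P58S and WT the percentages of all 9036 genes higher and lower were 0.0775% and 0.0553% at day 5 and 0.133% and 0.232% at day 20. Between days 20 and 5 they were 0.188% and 0.111% in P58S and 0.0885% and 0.122% in WT (limma). The members' medians were 0.09 and -0.03 for genotype at days 5 and 20, and -0.09 and 0.06 for age in P58S and WT, and in no comparison did over 2 members reach an unadjusted p under 0.05. RpL37A at day 5 (0.43 ± 0.18 SE, limma adjusted p = 1) and RpL8 with age in WT (0.41 ± 0.20, 0.498) had the smallest p-values of their comparisons. RpL11 had 792 to 970 CPM at day 20, against 847 to 1023 CPM at day 5, in P58S guts, and 946 to 1070 CPM against 875 to 1023 CPM in WT guts.

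RpS5b, the germ line partner of RpS5a that the level cut removed, was nearly absent from male heads, with 0 to 5.84 CPM per library. In female heads it had 46.8, 55.7, 35.3 and 55.1 CPM at day 5 and 38.9, 21.9, 43.7 and 37.0 CPM at day 20 in P58S, and 103, 1580, 239 and 331 CPM at day 5 and 232, 83.3, 108 and 199 CPM at day 20 in WT. WT heads lay above P58S heads at both ages. Guts had 22.7 to 382 CPM. The ovary markers summed to 130 to 4095 CPM in guts, to 10.1 to 51.7 CPM in P58S and 4.74 to 87.7 CPM in WT female heads at day 20, and to at most 8.2 CPM in male heads. Among female heads WT day 5 replicate 2 was highest in both, with 1580 CPM of RpS5b and a marker sum of 1251 CPM. In guts the group medians of both were higher at day 5 than at day 20 in each genotype. Other head libraries differed, as WT day 20 replicate 1 had 232 CPM of RpS5b at a marker sum of 4.74 CPM. P58S day 5 replicate 3 had 35.3 CPM at 249 CPM. A link between RpS5b and these markers was not tested.

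Genes that serve the making and use of ribosomes were counted in 4 lists, of which 36 translation factors, 23 ribosome assembly factors, 4 of 10 genes of RNA polymerase I and its factors, and 19 growth regulators were found. Between days 5 and 20, translation factors gave 6 rises and 2 falls in P58S heads, where 7.19% of all genes rose and 8.81% fell, and 5 and 1 in WT heads, where 5.07% rose and 5.51% fell, with medians of 0.12 and 0.08. Tctp, a growth-linked translation gene, rose by 0.34 in P58S (edgeR adjusted p = 0.00243) and 0.48 in WT (8.87e-05), whereas eEF1alpha2, a form of the elongation factor known in mammals from neurons and muscle, fell by 0.61 in P58S (edgeR adjusted p = 6.73e-06) and 0.61 in WT (6.92e-06). Of 23 assembly factors 2 rose in P58S, a share near that of all genes, the RNA methyltransferase Fib at 0.85 and the export adaptor Nmd3 at 0.84, and 3 in WT, led by nop5 at 0.75 and Nop60B at 0.70. The transcription factor Myc, which in flies drives ribosome synthesis, rose by 0.71 ± 0.11 in P58S (SE, edgeR adjusted p = 5.49e-05) and 0.68 ± 0.11 in WT (0.000132).

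Rack1, a scaffold on the small subunit, and the promoter factors M1BP and Dref did not pass in any of the comparisons of male or female heads by age or genotype. Thor, the fly eIF4E-binding protein, which restrains translation when TOR is low, was higher in P58S than in WT heads at day 15 (0.38 ± 0.09 SE, edgeR adjusted p = 0.0307) and day 20 (0.62 ± 0.09, 0.000101). Its change between days 5 and 20 differed with genotype (interaction 0.60 ± 0.13, edgeR adjusted p = 0.0416). No ribosomal protein member passed that test of the difference.

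In the kay series Myc rose with age in all 4 arms, by 1.03 ± 0.14 in KayKD (SE, edgeR adjusted p = 5.74e-06), 0.88 in KayWT (9.28e-05), 0.61 in KaySCR (0.00811) and 0.59 in Driver (0.00531). Compared with Driver, Myc was lower in KayWT at day 5 (-0.44 ± 0.14 SE, edgeR adjusted p = 0.0466), where more members rose than fell. It did not pass in the other comparisons of an arm with Driver. In KayKD 8 of 36 translation factors rose with age and 0 fell (2.88% and 2.86% of all genes), with Tctp at 0.65 (edgeR adjusted p = 0.000118), and Thor rose by 1.37 ± 0.20 (1.98e-05). Against Driver, the assembly factor Non1 was higher in every arm, by 0.95 in KayKD, 1.16 in KayWT and 0.91 in KaySCR at day 5 and by 0.77, 0.66 and 0.61 at day 15. Tif-IA, the factor that starts RNA polymerase I, fell by 1.01 in KayKD at day 5. These arms share the Driver libraries.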

How the data were processed

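Messenger RNA was sequenced with 3′-end kits from 88 libraries in 22 groups of 4. The authors deposited raw read counts per gene for male heads and log2 CPM values for female heads and guts. Per the submitters' processing notes the genome build was dm6, with the aligner, counter and annotation not stated in the sources. Coordinates are those of the Ensembl annotation of that build. In the deposited log2 tables the floor was -0.49 in heads and -1.34 in guts, and CPM was recovered as 2 to the value minus 2 to the floor. Whole reads came back for 100% of nonzero values within 0.1 read, and edgeR on these reads called 0 to 102 genes per comparison in female heads and 0 to 35 in guts. Of male reads 0.17 to 0.26% lay in rows that name no gene and were left out.

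Male counts were tested with edgeR 4.0.16 (R 4.3.3, TMM scaling, filterByExpr, quasi-likelihood test), in 1 fit of the 24 genotype libraries (9741 genes) and 1 of the 32 kay series libraries (9796 genes), and male levels are TMM-normalised CPM. Female heads (9640 genes) and guts (9036 genes) were tested with limma 3.58.1 with trend on log2(CPM + 1), for genes of at least 1 CPM in at least 4 libraries, so fold changes of low genes are understated there. Each fit had 1 mean per group, and p-values were adjusted by Benjamini and Hochberg over all genes, with 0.05 as threshold. Counts of members at an unadjusted p or by DESeq2 come without the share of all genes. They do not set the members apart from other genes. SEs of edgeR folds are the fold divided by the square root of F. The design had assumed plain CPM for the female tables. A level of 3 reads was 0.182 to 1.21 CPM in the genotype series, 0.2 to 2.49 CPM in the kay series, 0.44 to 15.0 CPM in female heads and 0.317 to 3.20 CPM in guts, counting error only. No 2 libraries of a group matched within counting noise.

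The members and gene lists were chosen with earlier results of these data known. Named in each comparison were up to 5 called members per direction by size, otherwise the 2 with the smallest p, plus the most and least abundant member, RpLP0, RpS6, sta, gene pairs, and up to 4 called genes of the other lists with Myc, M1BP, Dref and Rack1. Some members that this rule selects stay in all counts but are not reported here by name. Members grouped by place in the ribosome were grouped after their values were seen. Alternatives were other scalings (DESeq2 1.42.0 size factors, library size, scaling without the members), DESeq2's test, no filter, other pseudocounts, fits of the compared groups alone, a replicate block and leaving out libraries. The tests were checked on simulated data.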

Additional observations from a re-analysis of the deposited data

Results flagged for a closer look

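In groups of 4 libraries, single libraries far from the other 3 were looked for in the share of reads and in the members named by rule. Of 200 group values 9 stood apart, 4.5%, where chance gives about 1 in 20. P58S day 5 replicate 3 accounted for 2 of them, with RpL35 at 285 CPM against 653 to 721 CPM in the other 3, and RpL23 at 668 CPM against 1223 to 1264 CPM. In WT male heads the share of reads from members was 6.76% in day 20 replicate 4, against 7.66 to 7.68% in the others, and RpL23 was low in replicate 3 at day 15, at 1024 CPM against 1170 to 1189 CPM, and at day 20, at 1487 CPM against 1569 to 1586 CPM.

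In the kay series RpL40 had 1054 CPM in KaySCR day 5 replicate 1, against 882 to 894 CPM in the others. RpLP2 had 1067 CPM in Driver day 5 replicate 1, against 822 to 858 CPM in the others. In female heads RpS4 had 1780 CPM in P58S day 5 replicate 3, against 1607 to 1634 CPM, and in female guts RpL37A had 1483 CPM in WT day 5 replicate 1, against 960.5 to 1009 CPM.

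RpS5b, which was outside the members, reached 1580 CPM in a WT female head library of 200661 reads at day 5, against at most 5.84 CPM in male heads. That library also had the highest sum of ovary markers among the head libraries, 1251 CPM, and WT female heads at day 5 the highest among head groups. WT day 20 replicate 1 had 232 CPM of RpS5b at a marker sum of 4.74 CPM, and a link was not tested.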

How the results depend on the processing

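Counts of members called moved by over 1.5 times as follows. Scaling by library size alone gave 36 calls for WT day 15 over day 5 (16 as reported), 38 for WT day 20 over day 5 (23), 50 for P58S day 15 over day 5 (28), 5 and 7 for day 20 over day 15 in WT (9) and P58S (12), 9 and 1 for KayWT over Driver at days 5 (15) and 15 (2), and 16 and 10 for age in Driver (4) and KayWT (0). It moved the median of all genes from 0.01 to 0.20 for WT day 15 over day 5 and from -0.00 to 0.15 for P58S. Fits of the compared groups alone gave 0 for P58S over WT at day 5 (1), 25 for WT day 15 over day 5, 11 and 13 for P58S days 15 and 20 (42) over day 5, 20 and 35 for day 20 over day 15 in WT and P58S, 0 for KayKD (8), KayWT and KaySCR (6) over Driver at day 5, 3 for KaySCR over Driver at day 15 (1), and 0, 14 and 0 for age in Driver, KayKD (25) and KaySCR (2). DESeq2 gave 14, 2 and 15 for KayKD at days 5 and 15 (0) and KaySCR at day 5 over Driver, 4 for KayWT over Driver at day 15, and 6 and 4 for age in KayWT and KaySCR. Without a filter there were 5 for KayKD over Driver at day 5, and 16 and 1 for age in KayKD and KaySCR. DESeq2 size factors and scaling without the members each gave 1 for age in KayWT. In female heads edgeR on recovered reads gave 1 for P58S over WT at day 5 (0) and 1 for age in P58S (0), TMM scaling 1 for age in P58S, and leaving out both shallow libraries, chosen after seeing the data, 4 for age in WT (9). Leaving out both divergent Driver libraries, also chosen after seeing the data, gave 0 for KayKD, KayWT and KaySCR over Driver at day 5. It also gave 0 for age in Driver. All genes called were then 57, 70, 48 and 213 of 10423 in that order.

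Leaving out single libraries gave 0 to 3 for P58S over WT at day 5 (0 without WT replicate 2 or 4 or P58S replicate 3, and 3 without P58S replicate 1). It gave 11 to 16 for WT day 15 over day 5, and 12 to 27 for day 20 over day 5 (14 without day 5 replicate 3 or day 20 replicate 2, and 12 without day 20 replicate 1). In P58S it gave 18 to 34 for day 15 over day 5 (18 without day 15 replicate 3) and 31 to 51 for day 20 over day 5. For day 20 over day 15 it gave 3 to 9 in WT (3 to 5 without any of day 15 replicates 1, 3 and 4 and day 20 replicates 1 and 4) and 2 to 13 in P58S (2 to 6 without any of day 15 replicates 1, 2 and 3 and day 20 replicates 2, 3 and 4). Against Driver at day 5 it gave 1 to 14 for KayKD, 7 to 21 for KayWT and 0 to 20 for KaySCR. Without Driver replicate 2 or 3 the counts were 1, 8 and 0 in that order, without Driver replicate 1 they were 13 for KayKD and 20 for KaySCR, and without replicate 4 they were 14 and 13. Of the arms' own libraries, KayKD replicates 1, 2 and 3 left 1, 5 and 3, KayWT replicates 1 and 2 left 9 and 7, and KaySCR replicates 1 to 4 left 2, 11, 2 and 3. At day 15 it gave 1 to 2 for KayWT (1 without Driver replicate 1, 2 or 3 or KayWT replicate 3) and 1 for KaySCR. For age it gave 0 to 17 in Driver (17 without day 5 replicate 1, 0 without day 5 replicate 2 or 3 or day 15 replicate 3, and 1 without day 15 replicate 2). It gave 12 to 23 in KayKD (12 and 15 without day 5 replicates 1 and 3, and 15 without day 15 replicate 4), and 0 to 2 in KayWT (1 and 2 without day 15 replicates 2 and 4). In KaySCR it gave 0 to 4 (4, 0, 1 and 0 without day 5 replicates 1 to 4, and 0, 1 and 0 without day 15 replicates 1, 2 and 4). In female heads it gave 0 to 4 for P58S over WT at day 5 (4 without WT replicate 1) and 2 to 18 for age in WT (18 without day 5 replicate 1 or 3, 5 without day 5 replicate 4, and 2, 5 and 2 without day 20 replicates 1, 2 and 4). The causes were not tested.

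Of 97 values of named members, 47 kept their direction and their side of the threshold under every alternative run. The other 50 changed side under at least 1 alternative, and none of the 97 reversed in sign. Values named in the text outside these 97 could reverse. RpL22 for P58S day 20 over day 5 went from -0.18 to 0.16 without day 5 replicate 3, passing in neither. Replicate numbers did not pair the libraries: in no comparison did every same-numbered pair correlate by over 0.1. With the number as a block the counts were 17 for WT day 15 over day 5, 41 for P58S day 20 over day 5 and 24 for age in KayKD, and no count moved by over 1.5 times. The number of libraries limits small differences, and depth limits the 2 shallow female libraries, in which 3 reads are worth 7.77 and 15.0 CPM.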
